A study of Mus musculus with 28 samples.

Results

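The measurements below follow a wound from 6 h to 12 h in skin that had never been inflamed. They compare 2 RNA-seq libraries titled 12hrwounding_CtrlEpdSC with 2 titled 6hrwounding_CtrlEpdSC, 4 of the 16 RNA-seq libraries and of the 28 samples of the series, over the 17299 genes that passed the filter on low counts. All mice were C57BL/6 and labelled female. The control mice received vanicream, a bland cream, for 6 days from postnatal day 60. Wounds were made at day 30, and 6 h or 12 h wounds were harvested. Epidermal stem cells (EpdSC), the dividing basal keratinocytes that renew the epidermis between the hairs, were sorted as Integrin A6+, B1+ SCa1+ CD34- cells. The gate keeps basal epidermal cells and leaves out hair follicle stem cells, which carry CD34. Mice given topical imiquimod, which provokes a psoriasis-like inflammation, in place of vanicream and then wounded and sorted in the same way supplied 2 libraries at each time. The labels do not say whether the 2 libraries of a group came from separate mice, so p-values measure the spread between libraries, which may be technical. The labels do not give the hour of the day at which skin was taken.

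In the first hours after a skin wound, keratinocytes at its edge switch on immediate early genes of the AP-1 family. They then change their keratins, loosen their adhesion to the basement membrane and move over the wound bed with the help of a provisional matrix and of proteases. Growth and migration need membrane, and cells make the cholesterol for it through the mevalonate and sterol pathway. That pathway is controlled as one unit by the SREBP2 transcription factor, which enters the nucleus when sterols in the endoplasmic reticulum run low. SREBP2 binds the sterol regulatory element in promoters together with the CCAAT-binding factor NF-Y.

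Between 6 h and 12 h, 112 of 17299 genes passed an adjusted p of 0.05 (edgeR quasi-likelihood test, Benjamini-Hochberg adjustment), which is 0.647% of the genes tested. Of these, 84 rose (0.486%) and 28 fell (0.162%). The genes of cholesterol synthesis led the rise: 16 of 31 members of the sterol and fatty acid list were called higher and none lower. The genes that fell included the clock repressors Nr1d1 and Nr1d2, the metal-binding Mt1, the zinc and manganese importer Slc39a8 and the small heat shock protein Hspb1. Tnc of the wound matrix, the actin crosslinker Actn1, the adhesion protein Fblim1 and the protease Plau rose as well. The smallest adjusted p was 0.000295, shared by Cyp51, Acat2 and Nucb2. Of the 17299 genes, 2381 had an unadjusted p under 0.05 in either direction, the background for list counts at that p.

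**Figure D1:**
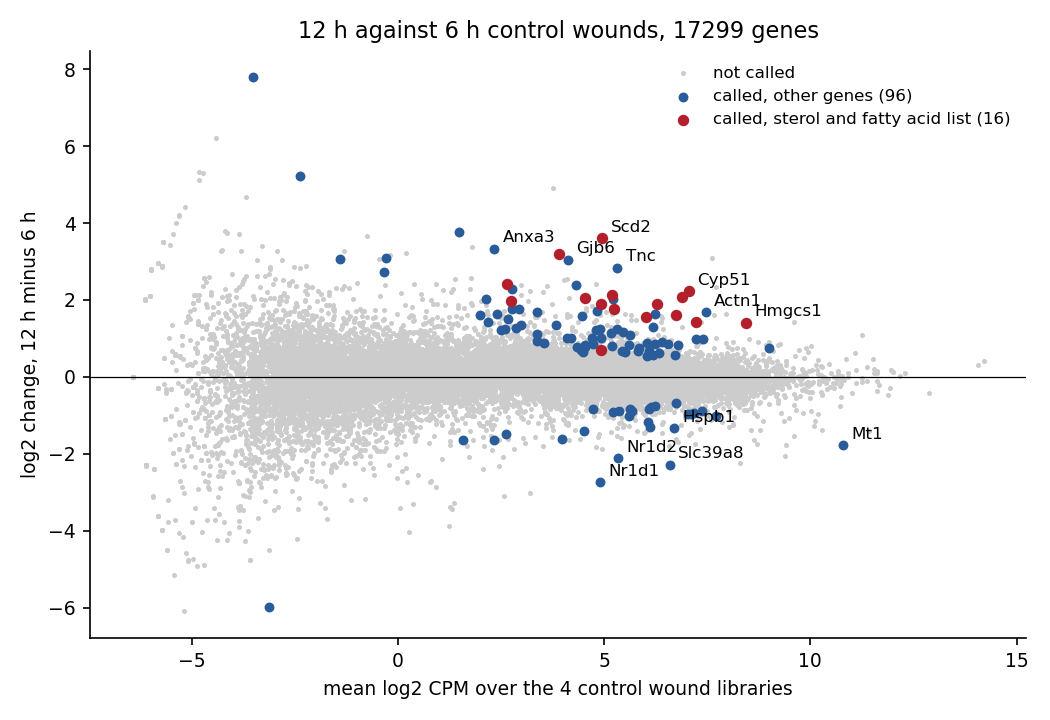
Each point is a gene, placed by its mean log2 CPM, its counts relative to the size of each library, over the 4 control wound libraries (x axis) and by its log2 change from 6 h to 12 h (y axis). Red points are the 16 called members of the sterol and fatty acid list and blue points the other called genes, which together make up the 112. The red points all lie above 0, and Nr1d1, Nr1d2, Slc39a8 and Mt1 lie lowest among the well-expressed called genes.

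The calls depend on having both libraries of a group. Without the 6 h library numbered 1, 43 genes were called, and 14 without the 6 h library numbered 2. Without the 12 h library numbered 1, 13 were called, and 16 without the 12 h library numbered 2. The sign of the change held for all 112 genes in these 4 fits. That was largely fixed in advance, since a gene whose groups do not overlap can hardly change sign without 1 library. The call held in all 4 fits for 9 genes, all of which rose: Acat2, Cyp51, Nucb2, Nsdhl, Actn1, Acvrl1, Erg28, Lss and Fblim1. For 86 of the 112 it held in none. With all libraries in place the count also moved with the model, to 698 by DESeq2 and to 316 in a fit of the 4 compared libraries alone. These counts over all genes are the background for the list members called by the same fits.

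The 4 libraries held between 27655665 and 70452325 counts. Library 1 was the deeper of the pair at 6 h and library 2 at 12 h. Log2 CPM correlated across genes at 0.973 between the 6 h libraries and at 0.985 between the 12 h libraries, genes not being independent replicates. Mitochondrial transcripts took 1.13% to 1.57% of counts. Day 30 unwounded control libraries are given only as levels beside the wounds, though they also enter the fit that estimates the spread of each gene. The one numbered 1 carried 7830 reads of 4 Y-linked genes and 0 reads of Xist against its label, while the wound libraries had 16512 to 61086 Xist reads with no more than 2 from the Y-linked genes.

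The sort markers were present at both times. Itga6 stood at 1936 and 1736 CPM at 6 h and 1413 and 1680.1 CPM at 12 h, and Krt14 at 16252 and 14512 CPM and then 20561 and 17533 CPM. Cd34, which the gate removes, did not pass 2.08 CPM in any of these libraries. None of the 8 gate and basal markers was called in the main fit. Without overlap, 5 were lower (24.7% of all genes were) and 2 higher (28.3% of all genes were). Epcam alone was called lower by DESeq2, and also in fits of only the libraries compared and of the 8 wounded libraries. Epcam, an adhesion protein of epithelia and also of Langerhans cells, stood at 376 and 493 CPM at 6 h and 174 and 193 CPM at 12 h, a change of -1.24 (adjusted p = 0.0537), while Cd207, which marks Langerhans cells, stayed under 1 CPM. Fewer cells of a type and less RNA per cell cannot be told apart in such bulk samples.

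Other cell types left small traces. Over 17 macrophage and monocyte markers the summed level was 13 and 7.79 CPM at 6 h and 12.6 and 12.1 CPM at 12 h. The T cell list summed to 343 and 447 CPM at 6 h and 358 and 315 CPM at 12 h, nearly all of it Thy1, with Cd3g at 0.0507 and 0.112 CPM and then 0.104 and 0.0826 CPM. Fibroblast markers were more abundant at 6 h: Dcn was at 17.4 and 8.02 CPM there and at 3.32 and 1.89 CPM at 12 h, and Col1a1 at 10.5 and 5.73 CPM and then 0.570 and 0.950 CPM. The 16 fibroblast markers had a median log2 change of -1.35 with 9 lower at 12 h without overlap between the libraries of the 2 times, which was so for 24.7% of all genes (4277). None was called by edgeR (5 lower at an unadjusted p under 0.05) or by DESeq2, and Col1a1 alone was lower in a fit of only the libraries compared. The neutrophil list summed to 86 and 171 CPM at 6 h and 242 and 238 CPM at 12 h, nearly all of it Cxcr2, S100a8 and S100a9, of which activated keratinocytes are known to make the S100 pair. Cxcr2 was at 70.5 and 114 CPM and then 119.93 and 120.27 CPM, while Csf3r, a defining marker of neutrophils, stood at 0.0169 and 0 CPM at 6 h and at 0 in both 12 h libraries. Of the 11 neutrophil markers 5 passed the filter and none was called by edgeR (0 at an unadjusted p under 0.05) or DESeq2. Hair shaft and inner root sheath genes were high in one library, the 6 h library numbered 2, where Krt71 reached 27.1 CPM against 1.94 CPM in its partner and 2.77 and 0.289 CPM at 12 h. Of the 12 tested members of that list 11 had a negative change, with a median of -2.59, and -2.05 after imiquimod. Without overlap, 4 were lower (24.7% of all genes were) and 1 higher (28.3% of all genes were). None was called by edgeR (4 lower and 1 higher at an unadjusted p under 0.05) or by DESeq2. The part of these cells in the results that follow was not tested.

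Promoters of the sterol genes are shown first because they are the stretches on which SREBP2 and NF-Y are known to act. The RefSeq windows used (GRCm38.p6, 250 bases before to 50 after a start) covered 21 of the 31 list members. The letters of the CCAAT box, CCAAT on either strand, were in the windows of 19 of those 21 genes (90.5%), against 42.1% of 11511 tested genes with a window and 41.1% of all 27025. The classic sterol regulatory element, TCACNCCAC on either strand, was found in the window of Hmgcs1 alone among them (4.76%), against 1.5% of the tested genes. CCAAT letters were not particular to the list, since 13 of 16 clock genes with a window (81.2%) held them too. The 150 bases before the start are printed 5′ to 3′ for the members Hmgcs1 (chr13:119690201-119690350, plus strand), Cyp51 (chr5:4104698-4104847, minus strand), Nsdhl (chrX:72918371-72918520, plus strand), Lss (chr10:76531455-76531604, plus strand) and Mvd (chr8:122443423-122443572, minus strand). Capitals mark the matches. The first capitals of Hmgcs1 are the sterol element, and all others are CCAAT or its complement ATTGG. A match of letters is a description and no evidence of binding.
Hmgcs1: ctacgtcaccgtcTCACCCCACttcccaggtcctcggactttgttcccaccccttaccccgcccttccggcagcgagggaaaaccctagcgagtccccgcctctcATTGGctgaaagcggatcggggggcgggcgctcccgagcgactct
Cyp51: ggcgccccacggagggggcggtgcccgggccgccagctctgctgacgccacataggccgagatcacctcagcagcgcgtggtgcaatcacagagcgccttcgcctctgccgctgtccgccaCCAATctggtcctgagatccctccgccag
Nsdhl: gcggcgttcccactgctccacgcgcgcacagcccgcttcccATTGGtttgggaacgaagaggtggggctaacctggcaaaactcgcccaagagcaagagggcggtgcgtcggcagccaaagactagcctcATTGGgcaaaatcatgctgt
Lss: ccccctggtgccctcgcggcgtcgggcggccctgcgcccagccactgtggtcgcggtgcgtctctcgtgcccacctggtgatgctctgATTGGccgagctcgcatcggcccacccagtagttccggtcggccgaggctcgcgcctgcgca
Mvd: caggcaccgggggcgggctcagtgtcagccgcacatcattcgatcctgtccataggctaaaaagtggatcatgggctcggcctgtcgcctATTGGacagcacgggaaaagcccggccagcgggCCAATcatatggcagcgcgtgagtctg

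Cholesterol synthesis begins with the mevalonate steps, and here the rise was shared from the first enzyme on. Hmgcs1 (chr13:119690351-119708260, mm10), which makes HMG-CoA, stood at 238 and 188 CPM at 6 h and 585 and 548 CPM at 12 h. The 12 h libraries lay close to the day 30 libraries, 571 and 599 CPM. Its log2 change was 1.41 ± 0.17 (SE), adjusted p = 0.0024. Pmvk, Mvd, Idi1 and Fdps carry mevalonate on to farnesyl diphosphate, and all 4 rose. Mvd moved most of these, from 4.82 and 5.13 CPM to 49.8 and 41.3 CPM, a log2 change of 3.20 ± 0.58 (SE), adjusted p = 0.0424. Fdps rose by 2.41 (adjusted p = 0.019), Pmvk by 2.04 (adjusted p = 0.0301) and Idi1 by 1.97 (adjusted p = 0.0104) on the log2 scale. Mvk, the one mevalonate enzyme of the list that was not called, changed by 0.61 (adjusted p = 0.303). No 6 h library of Hmgcs1, Pmvk, Mvd, Idi1 or Fdps reached the lower of the 12 h libraries.

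The sterol branch, which turns farnesyl diphosphate into squalene, lanosterol and then cholesterol, rose with them. Cyp51 (chr5:4080674-4104697), the lanosterol demethylase, was at 52.4 and 71.6 CPM at 6 h and 309.8 and 268 CPM at 12 h, with 178 and 263 CPM in unwounded skin at day 30. The 6 h libraries thus lay below both other groups. Its log2 change of 2.22 ± 0.20 (SE), adjusted p = 0.000295 was among those with the smallest p of all genes. Sqle, the squalene epoxidase, went from 45.1 and 70.6 CPM to 257 and 232 CPM (2.08 ± 0.36 (SE), adjusted p = 0.0339). Lss, which closes the sterol rings, went from 37.0 and 44.2 CPM to 159 and 142 CPM (1.89 ± 0.23 (SE), adjusted p = 0.0024). In this branch Fdft1, Msmo1, Nsdhl and Sc5d also rose, by 1.55, 1.42, 1.88 and 1.77 on the log2 scale. Dhcr7, which acts at the end of the branch, changed by 0.54 (adjusted p = 0.332) and missed the threshold. Hsd17b7, Ebp and Tm7sf2 of this branch were not called either. Stard4, which carries cholesterol between membranes, rose by 2.12 (adjusted p = 0.0436).

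Fatty acid genes of the list moved less evenly. Scd2, a desaturase that makes monounsaturated fatty acids, had the largest log2 change of the list. It stood at 7.00 and 11.0 CPM at 6 h and 110.3 and 108 CPM at 12 h, beside 46.6 and 154 CPM at day 30, a change of 3.62 ± 0.50 (SE), adjusted p = 0.0185 (chr19:44293676-44306864). Acaca, which commits acetyl-CoA to fatty acid synthesis, rose by 0.70 (adjusted p = 0.0494). Fasn changed by 0.61 (adjusted p = 0.109) and Acly by 0.76 (adjusted p = 0.123), both below the threshold. Scd1 and Elovl6 differed more between the 6 h libraries than between the times. Scd1 was at 202 and 64.5 CPM at 6 h and 205 and 201 CPM at 12 h. These regulators of the pathway were not called in the main edgeR fit: Srebf2, which encodes SREBP2, changed by 0.78 (adjusted p = 0.0603), its retention factor Insig1 by 1.43 (adjusted p = 0.0625) and Srebf1 by -0.03 (adjusted p = 0.974). DESeq2 called 24 of the 31 list members higher, with Srebf2, Insig1, Fasn, Acly, Hsd17b7 and Ebp among them but not Srebf1. An edgeR fit of the 8 wounded libraries called 22, with Srebf2 among them but not Insig1.

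Over the whole list of 31 genes the median log2 change was 1.42, beside 0.00135 over all genes tested. All but Srebf1 had a positive change. In 27 members both 12 h libraries lay above both 6 h libraries, which was so for 28.3% of all genes (4896). Summed over the list, the level was 2260 and 2360 CPM at 6 h and 5040 and 4830 CPM at 12 h, with 3670 and 5240 CPM at day 30. The 12 h sums thus lay within the range of the day 30 libraries. The lower day 30 sum came from the library numbered 1, whose reads go against its label. Single members differed from the sum. At 12 h Lss (159 and 142 CPM) lay above both day 30 libraries (43.5 and 73.2 CPM). So did Msmo1 (259 and 230 CPM, against 130 and 175 CPM) and Sqle (257 and 232 CPM, against 78.6 and 191 CPM). Scd2, Stard4 and Fdps lay within their day 30 range. Each count of called members fell when 1 library was left out: to 5 without the 6 h library numbered 1, to 7 without the 6 h library numbered 2, to 4 without the 12 h library numbered 1 and to 6 without the 12 h library numbered 2. Cyp51, Nsdhl and Lss held their call in all 4 fits and Hmgcs1 and Msmo1 in 3, whereas Scd2, Mvd, Fdps and Sqle held it in none. Hmgcs1 lost it without the 6 h library numbered 2 (adjusted p = 0.055) and Msmo1 without the 12 h library numbered 1 (adjusted p = 0.0672).

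**Figure D2:**
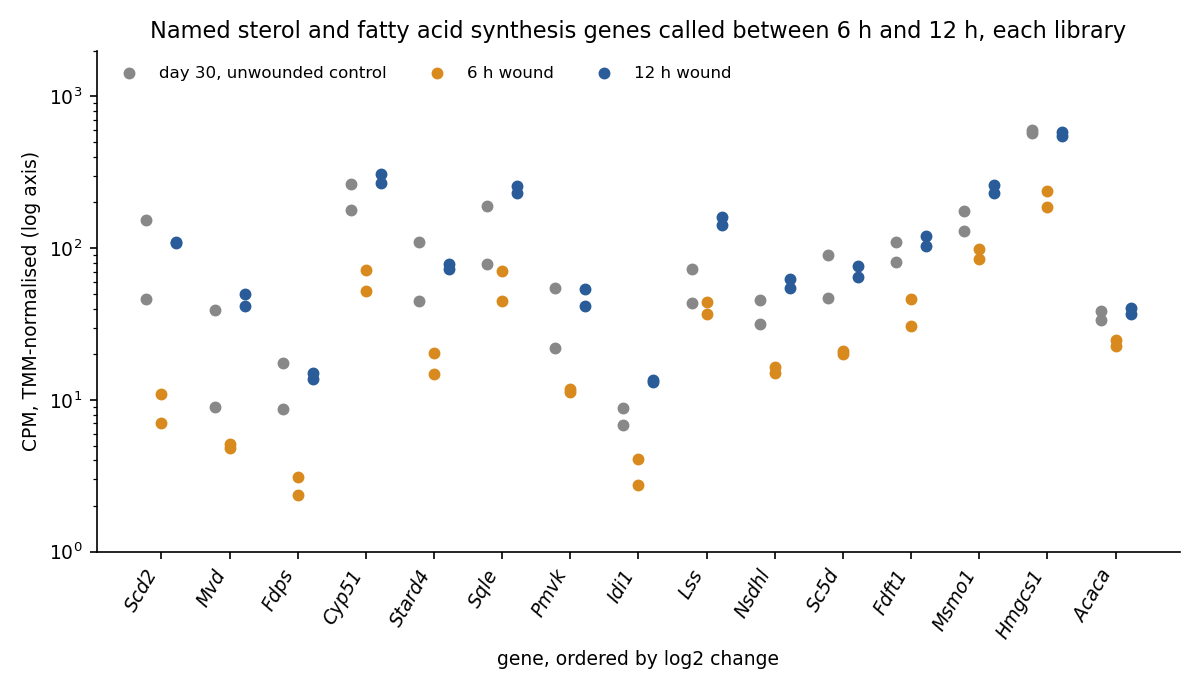
CPM on a log axis in each control library for the called members of the sterol and fatty acid list that are named in the text, ordered by log2 change, with grey for day 30 unwounded skin, orange for 6 h wounds and blue for 12 h wounds. In each gene shown the blue points lie above the orange ones, and for Hmgcs1 they lie beside the grey ones, from 548 to 585 CPM.

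Further genes of lipid metabolism rose that no list held, and these were chosen after their values were seen. Acat2 (chr17:12943042-12960725), a cytosolic thiolase that makes the acetoacetyl-CoA used by Hmgcs1, was at 9.88 and 7.45 CPM at 6 h and 48.6 and 43.3 CPM at 12 h. Day 30 libraries lay between, at 18.7 and 22.4 CPM, and the log2 change was 2.40 ± 0.22 (SE), adjusted p = 0.000295. Erg28, which holds sterol enzymes together in the endoplasmic reticulum, went from 26.2 and 25.4 CPM to 63.0 and 58.8 CPM (1.24 ± 0.15 (SE), adjusted p = 0.0024). Tmem97, a membrane protein that responds to sterol depletion, rose by 1.01 (adjusted p = 0.0186). Idh1, a cytosolic source of NADPH, rose by 1.26 (adjusted p = 0.0389), and Aacs, which makes acetoacetyl-CoA from ketone bodies, by 1.31 (adjusted p = 0.0421). Pgd, the NADPH-forming enzyme of the pentose phosphate path and a member of the NRF2 and glutathione list, rose by 0.57 (adjusted p = 0.0406). Without single libraries Acat2 and Erg28 held their calls in all 4 fits, Idh1 in 1, and Tmem97, Aacs and Pgd in none.

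Several single genes of the secretory pathway were also among those called. They were picked after their values were seen, and no list of that pathway stands behind them. Nucb2, a calcium-binding protein of the Golgi, went from 16.5 and 14.7 CPM to 49.77 and 52.97 CPM, with 16.4 and 20.9 CPM at day 30. Its log2 change was 1.72 ± 0.15 (SE), adjusted p = 0.000295, and it was called without any single library. Creb3l2, a membrane-bound transcription factor of secretory capacity, rose by 1.23 (adjusted p = 0.00795). Parts of the signal peptidase (Spcs2 by 0.82 and Sec11c by 0.81 on the log2 scale), of the oligosaccharyltransferase (Ostc by 0.85) and of the COPII coat (Sec23b by 0.56) rose as well. Spcs2 was at 82.6 and 84.7 CPM at 6 h and 146 and 148 CPM at 12 h. Creb3l2 held its call in 2 of the 4 fits that leave out a library, and Spcs2, Sec11c, Ostc and Sec23b in none. The list of unfolded protein and amino acid stress, which holds chaperones of the same compartment, had 0 of 35 members called by edgeR. At an unadjusted p under 0.05 it had 10 higher and 5 lower (2381 of 17299 genes in either direction). By DESeq2 the list had 3 members called higher and 1 lower. An edgeR fit of the 8 wounded libraries called 7 higher, Hsp90b1 among them, and 1 lower. One with a replicate block called 0. Its chaperone Hsp90b1 was at 385 and 536 CPM at 6 h and 804 and 855 CPM at 12 h (0.85 (adjusted p = 0.181)).

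A few genes of matrix, adhesion and movement rose, while the lists for these functions had medians near 0. The wound integrins and matrix receptors had a median log2 change of -0.0841, the actin and migration genes one of 0.099 and the metalloproteinases and plasmin system one of 0.0132, each with 1 member called. Tnc (chr4:63959785-64047015), which encodes tenascin C of the provisional wound matrix, was at 15.5 and 14.4 CPM at 6 h and 97.8 and 116 CPM at 12 h, and at 5.91 and 4.66 CPM at day 30. The 3 groups did not overlap. The change from 6 h to 12 h was 2.84 ± 0.51 (SE), adjusted p = 0.0424. Fibroblasts are another known source of tenascin C, and their part in this change was not tested. Actn1 (chr12:80167542-80260420), an actin crosslinker at adhesion sites, went from 103 and 95.1 CPM to 293 and 339 CPM (1.67 ± 0.19 (SE), adjusted p = 0.00179), from 56.7 and 51.4 CPM at day 30. Fblim1, which links filamin to integrin adhesions, went from 2.47 and 3.75 CPM to 14.0 and 15.9 CPM (2.28 ± 0.29 (SE), adjusted p = 0.00502). Plau, the urokinase that activates plasminogen, went from 44.5 and 40.7 CPM to 136 and 131 CPM (1.65 ± 0.22 (SE), adjusted p = 0.00511) and had stood at 44.2 and 70.9 CPM at day 30. Plau at 6 h thus lay within or below its day 30 range. Actn1 and Fblim1 held their calls in all 4 fits without a library, Plau in 3, losing it without the 6 h library numbered 2 (adjusted p = 0.0961), and Tnc in none.

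Gjb6 (chr14:57123301-57133611), which encodes the gap junction protein connexin 30, stood at 4.77 and 7.60 CPM at 6 h and 46.8 and 54.5 CPM at 12 h, and at 2.22 and 1.77 CPM at day 30. Its change was 3.05 ± 0.43 (SE), adjusted p = 0.0172. Its neighbour in function, Gjb2, was at 56.8 and 139 CPM and then 485 and 509.5 CPM, and the change of 2.35 (adjusted p = 0.227) missed the threshold, although DESeq2 called it. Anxa3, a membrane-binding annexin, went from 2.00 and 1.20 CPM to 14.5 and 18.3 CPM (3.33 ± 0.57 (SE), adjusted p = 0.0324). Acvrl1, a receptor for BMP9 and BMP10 best known from blood vessels, went from 19.0 and 18.0 CPM to 80.2 and 69.4 CPM (2.01 ± 0.22 (SE), adjusted p = 0.00179), while the endothelial markers Pecam1 and Cdh5 stayed under 2 CPM in the same libraries. S100a16, a calcium-binding protein of keratinocytes, went from 399.9 and 388 CPM to 691 and 629.6 CPM (0.75 ± 0.15 (SE), adjusted p = 0.049968). Acvrl1 was named after its values were seen. It held its call in all 4 fits without a library, and Gjb6, Anxa3 and S100a16 held it in none.

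Most listed proteases and integrins known from wounds were not called. Mmp9, the gelatinase, was at 2.20 and 2.73 CPM at 6 h and 72.9 and 74.6 CPM at 12 h, and at 0.993 and 0.0590 CPM at day 30. These groups were far apart, and the log2 change was 4.92 ± 0.91 (SE), adjusted p = 0.0501, just outside the threshold. The SE rests on the spread within all 8 groups of the fit. Mmp9 was called in 7 of 14 alternatives, DESeq2 among them, and its change ranged from 4.76 to 5.07 when a library of the comparison was left out. Mmp15, a membrane-anchored metalloproteinase on no list and named after its values were seen, rose from 19.7 and 17.4 CPM to 34.7 and 39.7 CPM (1.00 ± 0.17 (SE), adjusted p = 0.0283). Mmp13, a collagenase, was at 44.2 and 95.6 CPM and then 650.4 and 534 CPM (3.09 (adjusted p = 0.23)), and was called in a fit of only the libraries compared. Of the 23 tested members of the metalloproteinase and plasmin list only Plau was called (5 higher by DESeq2), and of the 18 wound integrins and matrix receptors only Tnc (2 higher and 3 lower by DESeq2). Itga5, the fibronectin receptor subunit of migrating keratinocytes, was at 31.9 and 38.4 CPM and then 58.8 and 68.6 CPM (0.86 ± 0.41 (SE), adjusted p = 0.387), and was called in a fit of only the libraries compared. Of the 42 actin and migration genes only Actn1 was called.

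The genes that fell include the nuclear receptors of the circadian clock. Nr1d1 (chr11:98767932-98775377) and Nr1d2 encode REV-ERB alpha and beta, repressors that swing over the day. Nr1d1 stood at 86.6 and 73.2 CPM at 6 h and 7.93 and 15.8 CPM at 12 h, and Nr1d2 at 99.5 and 73.0 CPM and then 15.1 and 24.6 CPM. Day 30 libraries held 82.8 and 49.8 CPM of Nr1d1 and 115 and 60.4 CPM of Nr1d2, which overlapped the 6 h levels. The log2 changes were -2.74 ± 0.44 (SE), adjusted p = 0.0293 for Nr1d1, and -2.12 ± 0.33 (SE), adjusted p = 0.0198 for Nr1d2. They were the 2 of 19 clock genes called. The list had a median log2 change of -0.739, with 11 members lower without overlap (24.7% of all genes were) and none higher without overlap (28.3% of all genes were). DESeq2 called 8 of them lower, Dbp, Per1 and Tef among these. Dbp, an output gene of the clock, was at 14.9 and 4.83 CPM and then 0.985 and 0.413 CPM (-3.87 (adjusted p = 0.0566)), Per1 changed by -1.25 (adjusted p = 0.0566) and Tef by -1.89 (adjusted p = 0.0649). The core activator Arntl was not called and stood at 67.0 and 80.2 CPM and then 74.4 and 79.3 CPM (0.06 (adjusted p = 0.907)). Since the hour of harvest is not given, time after wounding and time of day cannot be told apart. Neither call held when any of the 4 libraries was left out, with adjusted p of 0.0815 to 0.316 for Nr1d1 and of 0.0546 to 0.262 for Nr1d2.

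Genes of metal handling were also among those that fell. Mt1 (chr8:94178883-94180327) encodes a metallothionein, a small protein that binds zinc and copper and is induced by metals and stress. It was at 2735 and 3852 CPM at 6 h and 841 and 1096 CPM at 12 h, and at 2266 and 1080.2 CPM at day 30. The change was -1.77 ± 0.35 (SE), adjusted p = 0.0436. Mt2, its neighbour and close relative, was at 3906 and 5144 CPM and then 1469 and 1941 CPM (-1.41 (adjusted p = 0.0868)). Slc39a8, an importer of zinc and manganese, went from 168 and 262 CPM to 40.2 and 48.0 CPM (-2.28 ± 0.39 (SE), adjusted p = 0.0367), so that its 12 h libraries lay below those of day 30, 83.0 and 51.7 CPM. Slc30a1, the zinc exporter of the cell surface, went the other way, from 7.22 and 10.9 CPM to 21.3 and 24.7 CPM (1.36 ± 0.27 (SE), adjusted p = 0.0436), and was named after its values were seen. None of Mt1, Slc39a8 and Slc30a1 held its call in the fits without a library, where adjusted p ranged from 0.0593 to 0.465 for Mt1.

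The other genes that fell were scattered over functions. Hspb1, the small heat shock protein HSP27, stood at 151 and 177 CPM at 6 h and 62.9 and 68.0 CPM at 12 h (-1.33 ± 0.23 (SE), adjusted p = 0.0265), and at 199 and 227 CPM at day 30. It was the 1 of 23 heat shock genes called. Arid5a, an RNA-binding protein that stabilises inflammatory messages, went from 91.7 and 126 CPM to 43.5 and 45.1 CPM (-1.29 ± 0.21 (SE), adjusted p = 0.019). Pde4d, which breaks down cyclic AMP, fell by 1.47 on the log2 scale (adjusted p = 0.0406) and its relative Pde4b, named after its values were seen, by 0.83 (adjusted p = 0.0413). Rnd1, a small GTP-binding protein that loosens adhesion, changed by -1.61 (adjusted p = 0.0494). Crim1, a transmembrane binder of BMPs, changed by -0.96 (adjusted p = 0.0436) and was the 1 of 15 YAP and SRF targets called. Samd4, N4bp2l1, Azin1 and Cpne8 fell by between 0.94 and 1.63 on the log2 scale. Arid5a and Rnd1 were called in 1 of the 4 fits without a library, the one that leaves out the 6 h library numbered 1, and the other genes of this paragraph in none.

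**Figure D3:**
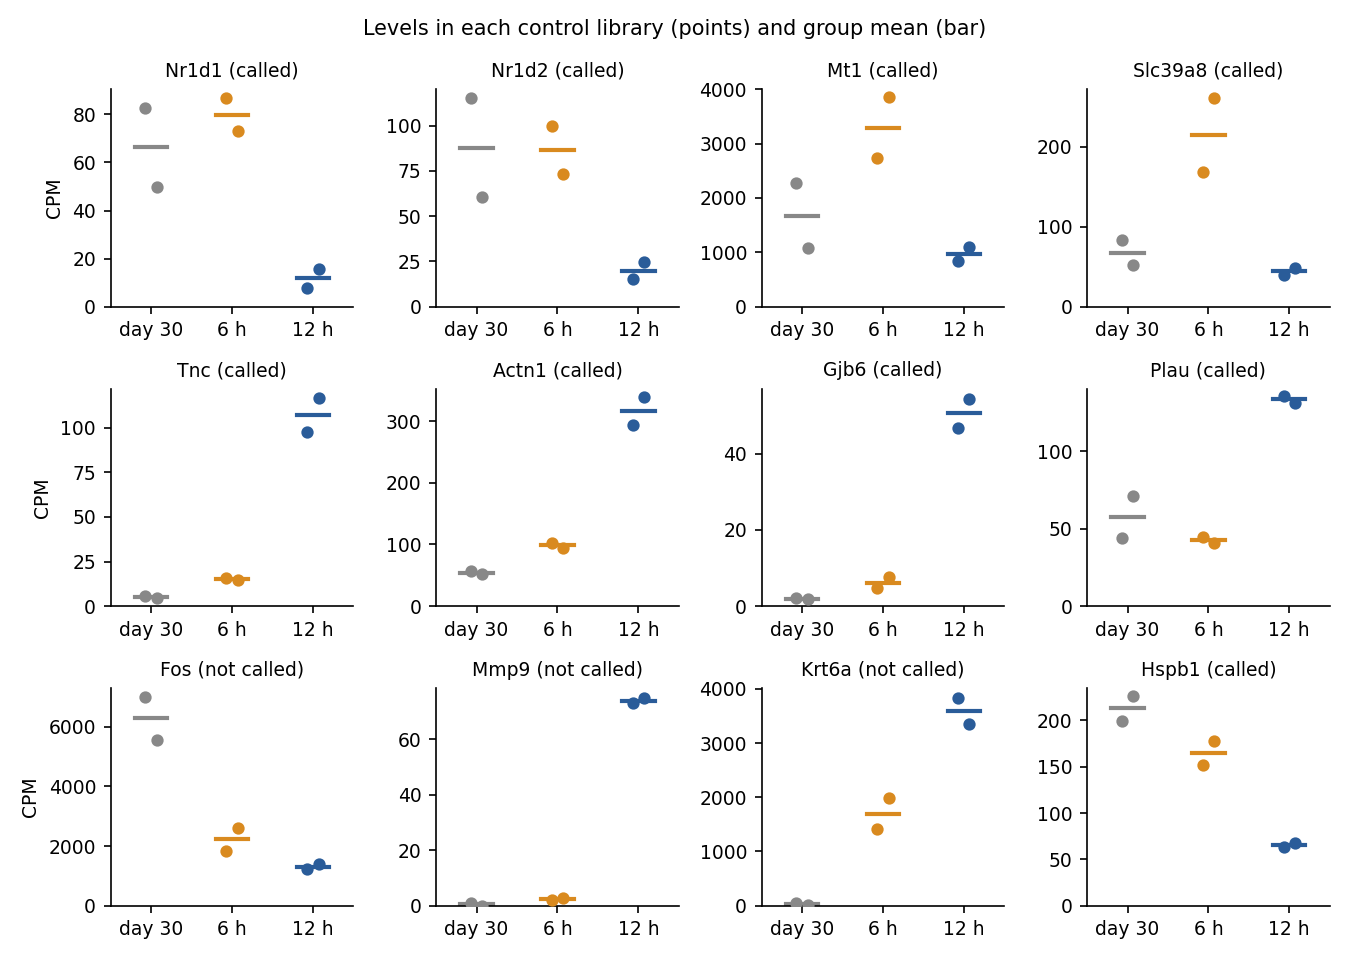
CPM of 12 genes in each control library (points) with group means (bars), at day 30 without a wound, at 6 h and at 12 h, each panel with its own axis from 0. The means of Nr1d1, Nr1d2, Mt1, Slc39a8 and Hspb1 are lowest at 12 h, while those of Tnc, Actn1, Gjb6, Plau, Mmp9 and Krt6a are highest there, and Fos, Mmp9 and Krt6a were not called.

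No immediate early gene was called by edgeR, although nearly all had a negative change, and the call depended on the tool. Of 27 AP-1 and early response factors, 26 had a negative change and 25 were lower without overlap (24.7% of all genes were), with a median log2 change of -1.02 and a smallest adjusted p of 0.0701. At an unadjusted p under 0.05 edgeR had 19 lower, beside 2381 of all 17299 genes in either direction. DESeq2 called 17 lower, with an adjusted p of 0.00259 for Egr1 and 0.00342 for Atf3, and edgeR on only the libraries compared called 7, Atf3 among them (adjusted p = 0.0198). Fewer were called lower by edgeR on the 8 wounded libraries (1, Nr4a3) and with a replicate block (3: Btg2, Jun and Klf2). Fos was at 1837 and 2610.3 CPM at 6 h and 1218 and 1403 CPM at 12 h (-0.76 (adjusted p = 0.3)), Egr1 at 1486 and 2612 CPM and then 740.4 and 836 CPM (-1.38 (adjusted p = 0.0996)), and Atf3, a stress-induced repressor, at 1099.7 and 1428 CPM and then 321 and 418 CPM (-1.77 (adjusted p = 0.133)). Unwounded day 30 libraries held more of all 3, with 7008 and 5550.5 CPM of Fos. Summed over the list, levels were 46300 and 44300 CPM at day 30, 12800 and 18800 CPM at 6 h, and 6620 and 8310 CPM at 12 h. The negative feedback of MAP kinases had a median of -0.474 and the hypoxia list one of -0.553, with 13 of 17 and 16 of 22 members lower without overlap (24.7% of all genes were). No member of either was called by edgeR, with 7 and 5 lower at an unadjusted p under 0.05, and DESeq2 called 1 and 2 lower.

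The wound keratins were already high at 6 h. Krt6a, the keratin of activated keratinocytes, was at 55.1 and 18.9 CPM at day 30, 1406 and 1982 CPM at 6 h and 3827 and 3347 CPM at 12 h. Both 12 h libraries lay above both 6 h libraries, but the change of 1.08 ± 1.19 (SE), adjusted p = 0.761 was not called. That SE rests on the spread within all 8 groups of the fit, not only on the wound libraries compared. Krt6a was called in 1 of 14 alternatives. Krt16, its partner, was at 1216 and 2389.8 CPM and then 3095 and 2494 CPM (0.63 (adjusted p = 0.794)), again with both 12 h libraries above both 6 h libraries and no call. The 26 stress keratin and envelope genes had a median log2 change of 1.16, 19 of them higher without overlap (28.3% of all genes were), and Gjb6 alone was called (3 members by DESeq2). Antimicrobial and alarmin genes had a median of 1.33, with 0 of 17 called by edgeR. At an unadjusted p under 0.05, 4 were higher and 1 lower (2381 of 17299 genes in either direction). DESeq2 called 2 higher and 1 lower. S100a8, also a neutrophil gene, was at 6.41 and 24.3 CPM and then 54.5 and 54.6 CPM (1.85 (adjusted p = 0.455)), and Slpi, a protease inhibitor, at 3.23 and 8.05 CPM and then 24.9 and 26.0 CPM (2.19 (adjusted p = 0.0733)). The part of neutrophils in these levels was not tested. The neutrophil chemokine gene Cxcl1 was at 41.0 and 39.0 CPM and then 31.2 and 26.5 CPM, and Il24, a cytokine of wounded epithelium, at 59.7 and 88.5 CPM and then 79.2 and 60.2 CPM, with changes of -0.47 (adjusted p = 0.728) and -0.09 (adjusted p = 0.983). Il1b stayed under 2 CPM. Basal and differentiation keratins showed no call: Krt14 changed by 0.31 (adjusted p = 0.783) and Krt10, of the suprabasal layers, by -0.11 (adjusted p = 0.962).

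Genes of DNA replication and of mitosis had medians of opposite sign. All 40 replication and S phase genes had a positive change, 38 of them without overlap (28.3% of all genes were higher so), with a median log2 change of 0.619. None was called by edgeR, 28 were higher at an unadjusted p under 0.05, and DESeq2 called 9. Mcm2, of the replicative helicase, was at 78.3 and 46.2 CPM at 6 h and 130.2 and 126 CPM at 12 h (1.04 (adjusted p = 0.103)), and Rrm2, of ribonucleotide reductase, at 38.8 and 30.5 CPM and then 64.6 and 64.2 CPM (0.89 (adjusted p = 0.0701)). Of the 40 mitosis genes, 38 had a negative change, 10 of them lower without overlap, a share near the 24.7% of all genes, with a median of -0.342. Mki67, the proliferation marker, was at 180.3 and 92.0 CPM and then 116 and 103 CPM (-0.32 (adjusted p = 0.659)), the 6 h libraries lying on either side of the 12 h libraries. The 45 ribosome biogenesis genes had a median of -0.312 with 38 lower without overlap, and the 46 oxidative phosphorylation genes a median of 0.218 with 38 higher without overlap. No member of these 4 lists was called by edgeR, and DESeq2 called none of the mitosis and ribosome biogenesis genes and 1 oxidative phosphorylation gene. At an unadjusted p under 0.05 edgeR had 9 mitosis and 14 ribosome biogenesis genes lower and 9 oxidative phosphorylation genes higher. Over all 17299 genes, 2381 were under that p in either direction. Members of a list share their libraries, so the counts without overlap are not independent.

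**Figure D4:**
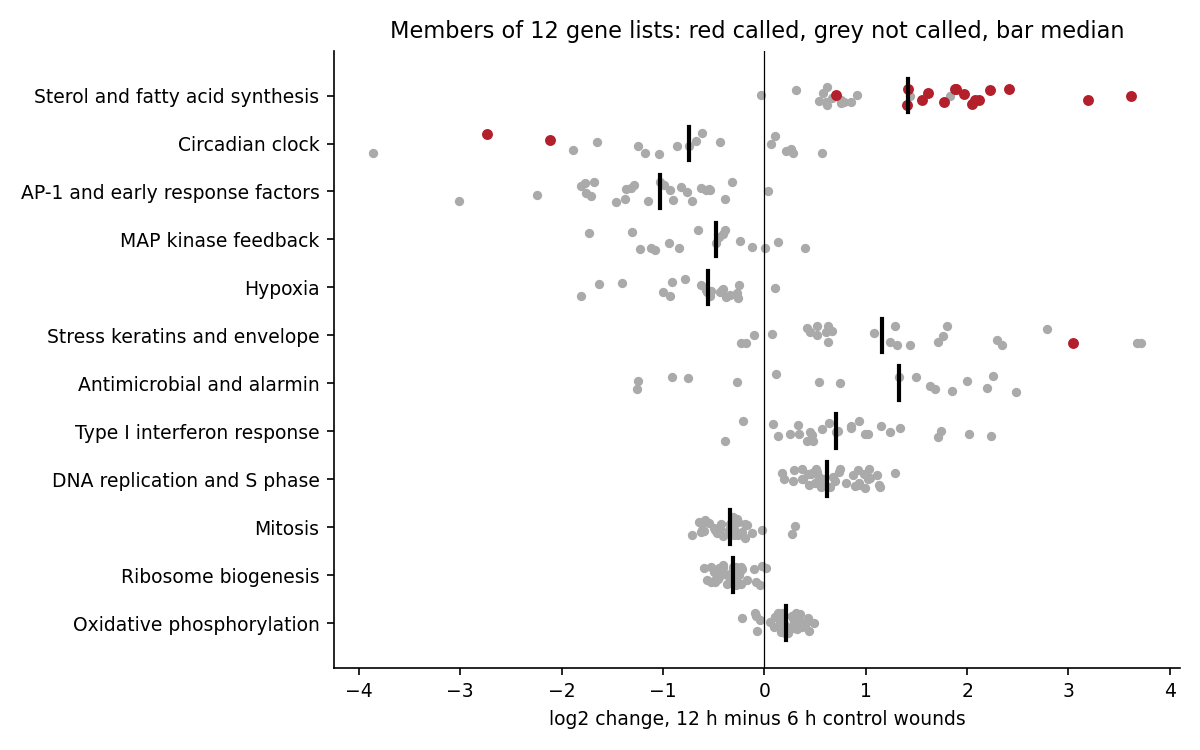
Log2 change from 6 h to 12 h for each tested member of 12 gene lists, with red for called genes, grey for the others and a black bar at the list's median. The sterol list (median 1.42) holds 16 red points, the clock list (median -0.739) 2 and the stress keratin list (median 1.16) 1, and the other 9 lists hold none.

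The same interval could be read in skin that had been treated with imiquimod, from 4 other libraries. These enter the control comparison through the shared estimate of the spread, the filter on low counts and the scaling. There 30 genes were called (0.173%), 26 rising (0.15%) and 4 falling (0.0231%). Of the 112 genes called in control skin, 112 had the same sign after imiquimod, 110 of them at an unadjusted p under 0.05, and 21 were called in both, which is 18.8% of the 112 and 70% of the 30. Over all 17299 genes 76.3% had the same sign. Cyp51 changed by 1.54 (adjusted p = 0.00554) after imiquimod, Scd2 by 3.84 (adjusted p = 0.0173), Actn1 by 1.38 (adjusted p = 0.00807), Acvrl1 by 2.32 (adjusted p = 0.000782) and Nr1d2 by -1.92 (adjusted p = 0.0483). Hmgcs1 changed by 0.92 (adjusted p = 0.0483). Of the 31 sterol genes 7 were called higher after imiquimod, while 30 had a positive change, with a median of 1.07. Mt1 changed by -1.11 (adjusted p = 0.225) and Gjb6 by 1.75 (adjusted p = 0.138), both short of the threshold. The median ratio of the change after imiquimod to that in control skin was 0.767 over the 112 genes, which were chosen for a large change in control skin.

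The test of the difference between the 2 changes (post-imiquimod minus control) called 0 of 17299 genes with edgeR, with 117 at an unadjusted p under 0.05, and 0 with DESeq2. A p that misses the threshold does not show that the 2 changes were alike. Within a time point, libraries of the same number also varied together across the treatments. Deviations from the group mean of libraries with the same number correlated across genes at 0.494 between control and post-imiquimod skin at 6 h and at 0.297 at 12 h, and the part of this in the shared signs was not tested. Without the post-imiquimod 6 h library numbered 2, 0 genes were called in the post-imiquimod comparison, and 5 without the one numbered 1. Without the post-imiquimod 12 h libraries numbered 1 and 2 the counts were 10 and 6.

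**Figure D5:**
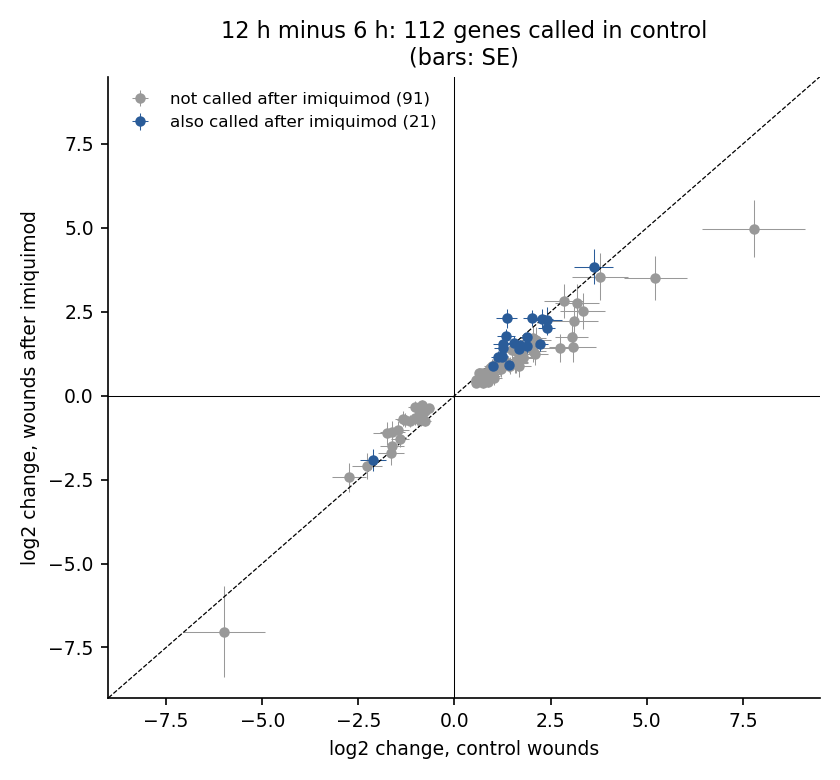
Log2 change from 6 h to 12 h in control wounds (x axis) and in wounds after imiquimod (y axis) for the 112 genes called in control skin, with bars of 1 SE in each direction. All 112 points lie in the quadrants of equal sign, and the 21 blue points were also called after imiquimod.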

How the data were processed

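RNA was measured in sorted epidermal stem cells. Per the labels' protocols, extraction used Trizol and then a Zymo kit, and the library kit was Illumina TruSeq RNA Sample Preparation, a kit that does not mark strand. The deposited files hold counts, 1 whole number for each gene and library and not normalized, that the authors made with STAR on mm10, per the submitters' processing notes. Versions, annotation release and the strand column are not stated in the labels or headers. Of 47729 gene IDs, 47224 matched a symbol, and 60 symbols had more than 1 ID. Between 0.0377% and 0.0461% of the counts of the 4 libraries compared lay on unmatched IDs. The series also has 12 ATAC-seq samples, not analysed here.

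The main test was edgeR 4.0.16 in R 4.3.3 (quasi-likelihood F test, robust, TMM scaling, filterByExpr by group, two-sided, Benjamini-Hochberg over 17299 genes, threshold 0.05), in 1 fit of 8 group means over 16 libraries with 8 residual degrees of freedom. The common biological coefficient of variation was 23%. Levels are TMM-normalised CPM, the SE comes from the F statistic, and adjusted p-values in the text are from this fit unless another is named. For 2 libraries against 2 the smallest exact permutation p is 0.333. On simulated data for 12 h against 6 h (16574 genes tested) the fit called 31 of 67 genes changed by 1 on the log2 scale, 64 of 67 changed by 2 and 64 of 66 changed by 3. Changed genes averaged at least 2 CPM, group means were otherwise equal, and libraries were drawn independently. These shares may therefore be too high for the real libraries, where Mmp9 missed the threshold with a change of 4.92 (adjusted p = 0.0501). Chi-square per gene between replicates was 49.3 at 6 h and 20.6 at 12 h, so they differed beyond counting error.

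The members and the gene lists (41 pathways, 13 sets of cell markers and 2 of RNA quality, with 1159 of 1160 genes found) were chosen with earlier results of these data known. Genes were named by rule: up to 10 called genes in each direction by log2 change (averaging 2 log2 CPM or more, groups not overlapping), up to 6 by difference in CPM, up to 4 called members of a list in each direction, and a fixed panel, 48 in all. Alternatives were median-of-ratios scaling, other filters, DESeq2 1.42.0, fewer libraries in the fit, a replicate block, thinned counts and leaving out each library. Promoter windows come from RefSeq (GRCm38.p6). Figures were drawn with matplotlib in Python. Some genes are counted in the lists but not reported here by name.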

Additional observations from a re-analysis of the deposited data

How the results depend on the processing

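The 12 h against 6 h count of 112 genes was 108 with median-of-ratios scaling, 149 with a filter of at least 1 CPM in 2 libraries and 93 with counts thinned to the smallest library. Without a filter it was 980, and the post-imiquimod count was 624 (30 in the main fit), the count for the difference between both 15 (main 0), that of list members 197 (main 26), of sterol genes 27 (main 16) and of clock genes 8 (main 2). With DESeq2, which left 3690 control p-values unadjusted as NA, they were 698 (402 higher and 296 lower), 365 after imiquimod, 113 list members and 8 clock genes. In fits of only the libraries compared they were 316, 120 after imiquimod, 75 list members and 4 clock genes. In fits of the 8 wounded libraries they were 434, 177, 79 and 4. The stricter filter gave 4 clock genes. The cause of these shifts was not tested.

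The day 30 libraries numbered 1, whose reads go against the sex on their labels, were left out after seeing the data, with 211 genes called, 77 after imiquimod and 47 list members. Replicate numbers were not taken to pair 6 h with 12 h libraries: deviations of same-numbered libraries correlated at -0.27 between the times in control skin, though at 0.494 and 0.297 between the treatments within a time. With the replicate block 140 genes were called, 41 list members and 4 clock genes, and 39 after imiquimod. A crossed block, also chosen after seeing the data, gave 89 and 33.

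Leaving out 1 library at a time gave 13 to 43 genes, 6 to 10 list members, 4 to 7 sterol genes, 0 clock genes, 5 to 9 of the 32 called among 48 named genes and 0 to 10 post-imiquimod genes. The lone library of a group was then assumed to vary like the others. No named gene that was called changed sign under any of the 14 alternatives. The groups did not overlap in these genes, so leaving out 1 library could hardly have turned a sign. Depth limits low genes most, and a missed threshold with 2 libraries a group says little about changes near 1 on the log2 scale. For some genes, such as Mmp9, larger changes missed it too.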

Other observations

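Some called genes with few reads stood apart from the lists that lead the comparison, and they were named after their values were seen. Psg18, of the pregnancy-specific glycoproteins, was at 0.457 and 1.16 CPM at 6 h and 11.4 and 9.76 CPM at 12 h, and at 0 and 0.0295 CPM at day 30 (change 3.77 ± 0.73 (SE), adjusted p = 0.0436). Psg28 had 0 reads at 6 h and stood at 0.674 and 0.606 CPM at 12 h. These genes belong to a family of close copies, so the assignment of their reads is uncertain, and neither call held when a library was left out.

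Among red cell genes the beta globin Hbb-bs, which also has close copies, stood at 0.643 and 0.862 CPM at 6 h and 0 and 0.0138 CPM at 12 h. Slc4a1, the anion exchanger of red cells, went the other way, from 0.0169 and 0.0375 CPM to 0.933 and 1.06 CPM. Both were called, with adjusted p of 0.0406 and 0.0309, and neither held its call without a library.

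Degs2 and Cyp7b1, a ceramide desaturase of barrier tissues and an oxysterol hydroxylase, rose from under 1 CPM. Degs2 went from 0.321 and 0.225 CPM to 2.83 and 2.05 CPM (3.10 (adjusted p = 0.0494)) and Cyp7b1 from 0.169 and 0.0749 CPM to 1.58 and 0.785 CPM (3.07 (adjusted p = 0.0436)).

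The type I interferon list had 25 of 27 members with a positive change and a median log2 change of 0.702, with 12 higher without overlap (28.3% of all genes were). None was called by edgeR, and DESeq2 called 1, Bst2. At an unadjusted p under 0.05, 3 were higher, beside 2381 of all 17299 genes in either direction. Some members were highest in the 12 h library numbered 2. Isg15 was at 3.06 and 7.09 CPM in the 12 h libraries and Rsad2 at 0.389 and 1.93 CPM, beside 1.51 and 3.60 CPM and 0.372 and 0.337 CPM at 6 h. Bst2 differed less between replicates, with 5.67 and 6.78 CPM and then 11.9 and 15.6 CPM (1.15 (adjusted p = 0.0701)). Fn1, fibronectin of the wound matrix, was at 10.0 and 8.80 CPM at 6 h and 2.64 and 2.41 CPM at 12 h (-1.90 (adjusted p = 0.053)), and after imiquimod it changed by -2.70 (adjusted p = 0.0317).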
